A study of Mus musculus with 36 samples.

Results

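The chromatin of 8 genes for transcription factors of the pre-B cell stage (Spi1, Spib, Irf4, Irf8, Bach2, Bcl6, Bcl11a and Lef1) was examined by DNase-seq, which sequences short fragments released where the enzyme DNase I cuts open chromatin. Every DNase hypersensitive site (DHS) that overlapped the body of 1 of the genes in the GENCODE vM21 annotation, extended by 20 kb on each side, was taken, which gave 67 DHS of the 52788 in the whole table. They divide into 21 at Bach2, 11 at Lef1, 8 at Irf8, 7 at Spib, 7 at Bcl6, 6 at Spi1, 5 at Bcl11a and 2 at Irf4. A DHS was assigned by position alone, so a DHS in the window of a gene need not act on that gene. The cells were B3, a mouse pre-B cell line. The Ikaros line carried a retroviral vector for HA-tagged Ikaros fused to the hormone-binding domain ERt2 with IRES-GFP, and the Control line carried the same vector with ERt2-IRES-GFP but without Ikaros. Each line was sampled at 0, 2, 6, 12, 18 and 24 h with 3 replicates, numbered 4, 5 and 6 and belonging to batches 11, 12 and 13, so that there were 12 groups and 36 libraries. The drug 4-hydroxytamoxifen at 0.5 µM moves the fusion protein into the nucleus. In the labels every sample carries the drug. The methods of the study instead describe the cells of 0 h as untreated and gathered apart from the time courses. Each line is a single retrovirally transduced cell population, so a difference between the lines at all times cannot be told apart from a difference between the populations.

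Spi1 encodes PU.1, and Spib its close relative Spi-B, which are Ets-family factors that bind purine-rich sites around a GGAA core. PU.1 and Spi-B recruit Irf4 and Irf8, members of the interferon regulatory factor family, to composite elements in which an Ets site stands next to an Irf half-site, and immunoglobulin light chain enhancers of pre-B cells hold such elements. Bach2 is a basic leucine zipper repressor that pairs with small Maf proteins. Bcl6 is a zinc finger repressor that protects pre-B cells during light chain rearrangement. Bcl11a is a zinc finger factor that early B cell development requires. Lef1 is an HMG-box factor that works with β-catenin and is expressed in early B cells. Ikaros, the zinc finger factor that the Ikaros line can be made to activate, takes pre-B cells out of the cell cycle and toward later stages.

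The values were log2 of a normalised read density per length (log2 RPKM), so the levels of different DHS are on 1 scale. The member DHS were 88 to 681 bp wide. Whether dividing by length treats narrow and wide DHS alike was not tested, which limits comparisons of level between DHS of unlike width. They came from bulk cells, in which fewer open cells and less opening per cell cannot be told apart. The medians of the 36 libraries lay between 3.90 and 4.11. The depth of the libraries is unknown, and per the series text some replicate 4 libraries of the Ikaros line were sequenced again for more coverage, so no counting error is given. Of the B lineage genes checked, Pax5 and Ebf1 had promoter DHS with mean levels of 5.78 and 5.99, and Rag1 had one with 3.91. A promoter DHS was listed for 1 of 5 T lineage genes (Lck), 1 of 5 myeloid genes (Lyz2), 1 of 2 annotated erythroid genes (Klf1) and 0 of 2 muscle genes. The mean levels were 4.24 at Lck, 3.29 at Lyz2 and 4.58 at Klf1, so that Lck and Klf1 lay above Rag1. Myeloid markers such as Csf1r and Itgam had none.

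The sequences that the later results refer to are shown here on the strand of the gene they are named after, read from the mouse genome GRCm38, which is the build mm10 of the deposited table. Each DHS is named by its gene and by the distance of its centre from the transcription start site in kb, negative where upstream. Coordinates of the printed sequences count from 1, on the reading that the deposited starts count from 0, which the table does not state. Capitals mark matches, on either strand, to the sequences searched: GAGGAAGT for PU.1, GGAANTGAA for an Ets-Irf composite element, GAAANNGAA for Irf, TGGGAA for Ikaros, TGACTCAGC for Bach-Maf, TTCCTAGAA for Bcl6 and CTTTGAT for Lef1 and Tcf. A match is a match of letters and not a shown binding site. Matches in a part of a DHS that is not printed are not marked, as with the Ikaros match of Irf8 -0.1 kb, which lies past the start site. The first 5 are 4 of the 7 DHS with a call in some comparison and the DHS with the smallest p at 24 h: an intronic DHS of Bach2, a DHS upstream of Bcl11a at the promoter of the annotated gene Gm12063, the Irf8 promoter (300 of its 500 bases, ending before the start site), an intergenic DHS upstream of Spi1 (its first 300 of 531 bases), and a DHS in the window of Spib at the promoter of Pold1, the catalytic subunit of DNA polymerase delta. The DHS of Spi1 at -13.0 kb (its middle 300 of 511 bases) lies upstream of the main start site, in an intron of the annotated gene body, in the stretch where a distal upstream regulatory element is known, and whether it is that element was not tested.
Bach2 +149.3 kb, chr4:32388060-32388189, + strand: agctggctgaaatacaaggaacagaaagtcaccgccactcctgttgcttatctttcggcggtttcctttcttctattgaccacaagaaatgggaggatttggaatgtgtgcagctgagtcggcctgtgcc
Bcl11a -1.6 kb, chr11:24076416-24076566, + strand: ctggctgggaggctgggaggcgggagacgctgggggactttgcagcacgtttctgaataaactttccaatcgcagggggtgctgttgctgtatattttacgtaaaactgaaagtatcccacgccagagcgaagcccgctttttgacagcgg
Irf8 -0.1 kb, chr8:120736033-120736332, + strand: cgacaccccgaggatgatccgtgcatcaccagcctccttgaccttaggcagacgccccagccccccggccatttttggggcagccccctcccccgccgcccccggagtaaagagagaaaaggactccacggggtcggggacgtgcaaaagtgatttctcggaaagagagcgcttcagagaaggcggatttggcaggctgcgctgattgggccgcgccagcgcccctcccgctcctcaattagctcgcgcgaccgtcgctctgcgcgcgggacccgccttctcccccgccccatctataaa
Spi1 -17.4 kb, chr2:91078387-91078686, + strand: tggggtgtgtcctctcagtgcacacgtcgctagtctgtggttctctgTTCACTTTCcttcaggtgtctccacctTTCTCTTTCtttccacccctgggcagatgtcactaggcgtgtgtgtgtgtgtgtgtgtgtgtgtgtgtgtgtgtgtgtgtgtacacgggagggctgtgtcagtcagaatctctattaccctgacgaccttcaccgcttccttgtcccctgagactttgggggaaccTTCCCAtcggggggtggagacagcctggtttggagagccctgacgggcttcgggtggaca
Spib -15.9 kb, chr7:44547892-44548036, - strand: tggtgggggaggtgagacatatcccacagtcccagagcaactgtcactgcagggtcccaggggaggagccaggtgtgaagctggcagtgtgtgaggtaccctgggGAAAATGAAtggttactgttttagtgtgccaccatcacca
Spi1 -13.0 kb, chr2:91082953-91083252, + strand: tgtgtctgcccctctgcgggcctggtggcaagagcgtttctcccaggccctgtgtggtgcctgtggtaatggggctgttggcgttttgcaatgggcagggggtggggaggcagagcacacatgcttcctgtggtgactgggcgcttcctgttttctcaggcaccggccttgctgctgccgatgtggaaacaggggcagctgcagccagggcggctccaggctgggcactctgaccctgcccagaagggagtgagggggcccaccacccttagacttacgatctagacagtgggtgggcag
The next 4 are the DHS with a match to the PU.1 sequence, the factor that Spi1 encodes.
Irf4 +37.1 kb, chr13:30786276-30786405, + strand: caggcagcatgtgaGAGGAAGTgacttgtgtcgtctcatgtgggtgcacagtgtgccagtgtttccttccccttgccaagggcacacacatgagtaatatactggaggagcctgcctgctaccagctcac
Irf8 +27.1 kb, chr8:120763419-120763548, + strand: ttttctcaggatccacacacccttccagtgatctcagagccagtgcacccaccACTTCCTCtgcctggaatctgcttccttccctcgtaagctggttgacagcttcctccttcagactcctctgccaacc
Bach2 +134.6 kb, chr4:32373289-32373573, + strand: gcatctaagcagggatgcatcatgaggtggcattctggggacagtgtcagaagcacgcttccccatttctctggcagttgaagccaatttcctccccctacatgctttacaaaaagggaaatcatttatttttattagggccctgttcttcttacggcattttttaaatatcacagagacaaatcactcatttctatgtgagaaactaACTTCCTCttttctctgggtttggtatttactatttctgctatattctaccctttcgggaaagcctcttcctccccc
Bach2 +326.3 kb, chr4:32565087-32565216, + strand: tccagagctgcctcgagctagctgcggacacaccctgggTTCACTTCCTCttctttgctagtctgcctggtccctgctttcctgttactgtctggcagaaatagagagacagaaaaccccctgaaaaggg
The last is the single Bcl6 match, in the first exon of Bcl6 itself and 259 bp from the start site, shown with its flanks.
Bcl6 first exon site, chr16:23988579-23988607, - strand: tgcaagaagtTTCTAGGAAaggccggaca

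The motif content was like that of DHS in general. The PU.1 sequence was found in 4 of 67 DHS (5.97%, against 6.18% of all DHS), none of them at Spi1 or Spib. The composite sequence was found in 3 DHS (4.48%, against 4.38%), at Bach2 +10.5 kb, Bach2 +326.3 kb and Lef1 +98.2 kb. In Bach2 +326.3 kb the PU.1 and composite matches overlap and both read on the strand opposite to the one printed, so that they share the run of capitals in its sequence. The Irf sequence was found in 5 DHS (7.46%, against 11.2%), 2 times within Spi1 -17.4 kb, and in 1 of them, Spib -15.9 kb, it stands near the end of the sequence shown. The Ikaros sequence was found in 17 DHS (25.4%, against 26.6%), the Lef1 and Tcf sequence in 1 (1.49%, against 4.33%) and the Bach-Maf sequence in 0 (against 0.932%). The Bcl6 sequence was found in 1 DHS (1.49%, against 0.538% of all), which is the Bcl6 promoter. Among DHS of at most 200 bp the PU.1 sequence was in 3 of 37 (8.11%, against 4.94% of all such DHS) and the Ikaros sequence in 4 (10.8%, against 12.3%).

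The 8 loci held more DHS per length than the genome, 6.85 per 100 kb over 978.7 kb against 1.94 per 100 kb. The genome figure takes in stretches without genes, and windows around other genes were not counted, so this is not shown to be particular to these loci. The density ran from 3.46 per 100 kb at Irf4 and 3.67 at Bcl11a to 13.3 at Irf8 and 15.2 at Spib. Of the 67, 16 were promoter DHS (within 1000 bp of an annotated start site), 35 were intronic, 6 were exonic and 10 fell outside genes. The intronic share was 52.2%, against 35.4% of all DHS, and the intergenic share 14.9%, against 32.9%, as the windows were laid around genes. The member DHS were narrower, with a median width of 156 bp against 500 bp, and 55.2% were at most 200 bp wide, against 46.1% of all. Their median level was 4.04, against 3.95 for all DHS.

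**Figure D1:**
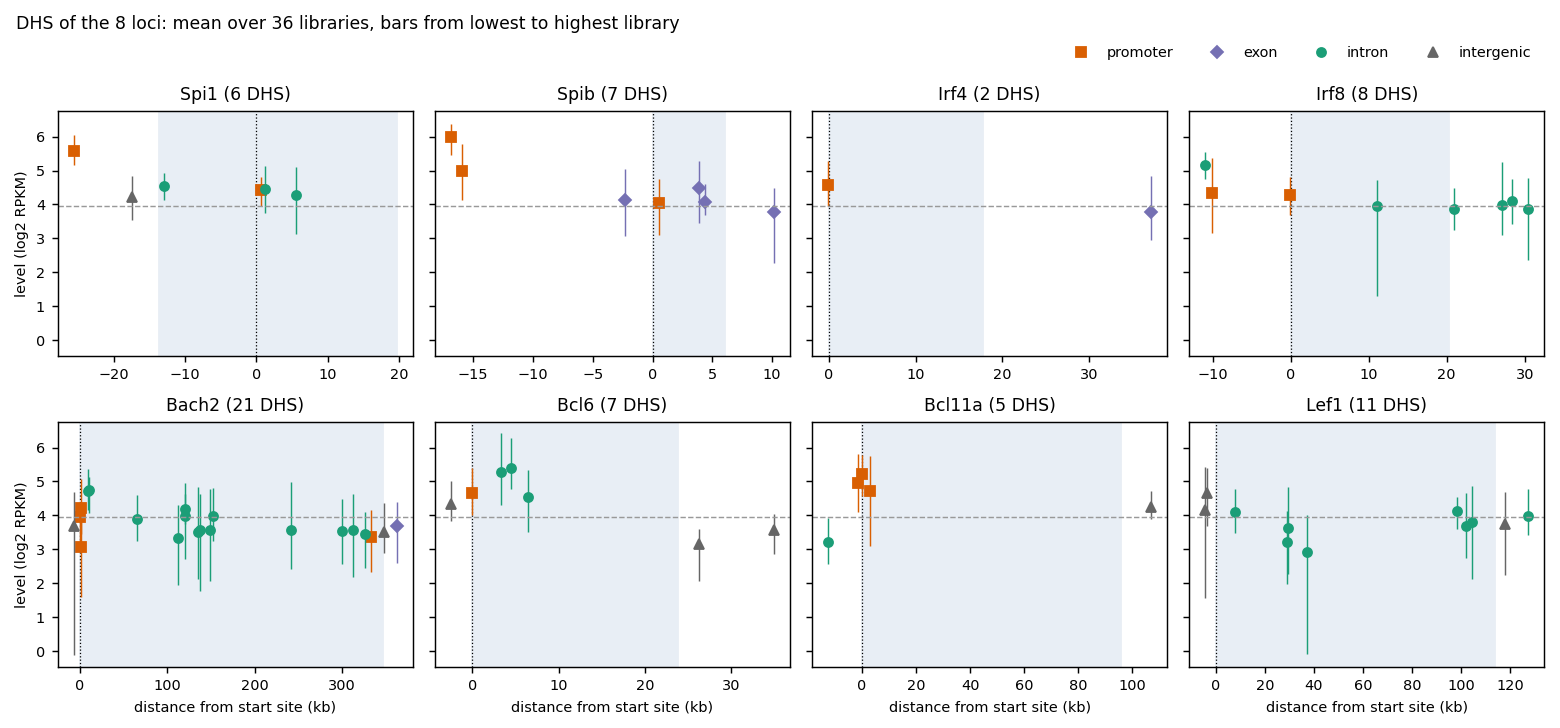
Level of each of the 67 DHS (y axis, log2 RPKM; mean over 36 libraries, bars from the lowest to the highest library) against the distance of its centre from the start site (x axis, kb), with the gene body shaded and the median of all DHS (3.95) dashed. The 4 place classes have their own marks. The DHS of Bach2 spread over the gene body, mostly between 3.3 and 4.7, and those at the promoters of Pold1 (Spib panel) and Slc39a13 (Spi1 panel) lie highest.

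The most open DHS in these windows belonged to neighbouring genes. The highest mean level, 5.97 (range over libraries 5.45 to 6.37), was at Spib -16.8 kb, at the promoter of Pold1, and lies above 99.3% of all DHS. Next came Spi1 -25.6 kb, at the promoter of the zinc transporter gene Slc39a13, with 5.59 (5.17 to 6.04). At Bcl6 the highest was an intronic DHS at +4.5 kb, with 5.38 (4.77 to 6.28). The highest at Irf8 was at -10.9 kb, with 5.15 (4.74 to 5.55), the highest at Bach2 was intronic at +10.5 kb, with 4.74 (4.07 to 5.12), and the highest at Lef1 was intergenic at -3.6 kb, with 4.67 (3.69 to 5.40). At Irf4 and Bcl11a it was the gene's own promoter. The least open was the intronic Lef1 +37.1 kb at 2.94, which ranged from -0.07 in Control 18h replicate 6 to 4.00 in Ikaros 24h replicate 5. The Spi1 DHS at -13.0 kb had 4.56 (4.13 to 4.93), above the median of all DHS in every library.

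Of the 8 genes, 7 had at least 1 DHS at their own promoter, 10 in all, and Lef1 had none in the table. Bcl11a had the highest, at its start site, with a mean of 5.22 (4.57 to 5.77) over the 36 libraries, and a further one at +3.0 kb, by a later annotated start site of the gene, with 4.73 (3.09 to 5.76). Then followed Bcl6 with 4.66 (4.03 to 5.38), Irf4 with 4.58 (3.97 to 5.27), Spi1 with 4.42 (3.95 to 4.82) and Irf8 with 4.28 (3.69 to 4.82). The lowest were Bach2 at +1.2 kb with 4.23 (3.45 to 5.09), Spib with 4.04 (3.11 to 4.76), and Bach2 at -0.1 kb with 3.95 (3.20 to 4.37) and at +0.7 kb with 3.08 (1.61 to 4.11). Neighbours in this order differed by less than the larger of their pooled replicate SDs in all steps but the last, from Bach2 -0.1 kb to Bach2 +0.7 kb (0.87 against an SD of 0.56). That SD is the spread of single libraries and not the error of a mean over 36 libraries. Whether the means of neighbours differ was not tested. The Spib promoter DHS lay near the median of all DHS (percentile 55.3) and the Bcl11a one at percentile 93.2. Widths differed along this order. The Bcl11a and Irf4 promoter DHS were 130 to 179 bp wide, that of Bcl6 595 bp, and those of Spi1, Irf8 and Bach2 at -0.1 kb 500 to 509 bp.

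**Figure D2:**
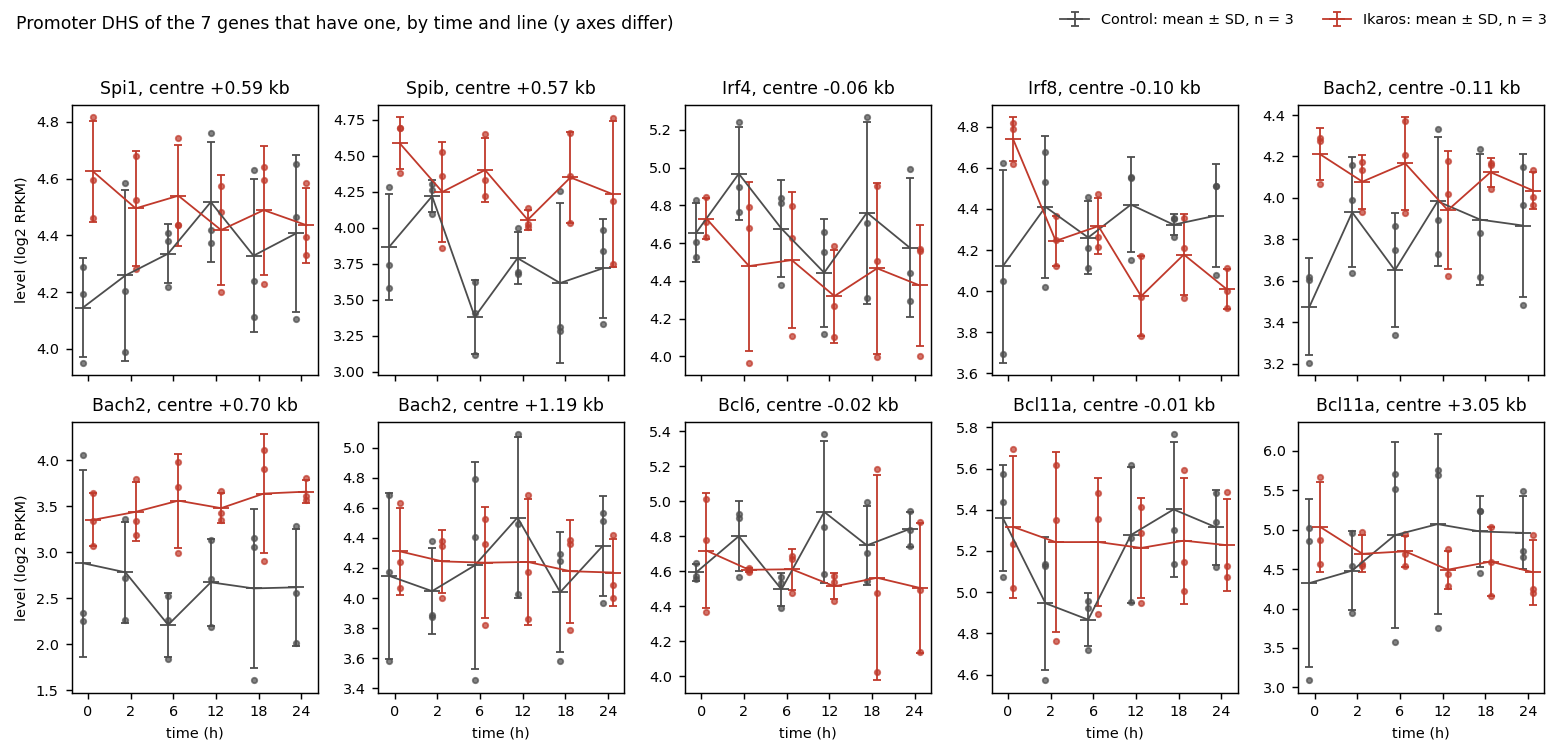
Level (y axis, log2 RPKM) of the 10 promoter DHS at 0 to 24 h (x axis) in Control (grey) and Ikaros (red) cells; points are libraries, lines and bars the mean ± SD of 3. The Irf8 panel shows Ikaros above Control on average at 0 h (4.74 against 4.12) and below at 24 h (4.01 against 4.37), and the y axes differ between panels.

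At 24 h none of these promoter DHS was called different between the lines by limma. With n = 3 in each group, this does not show that the lines were equal there. The Spi1 promoter had 4.44 ± 0.13 in Ikaros and 4.41 ± 0.28 in Control cells (SD, n = 3 each, as for all values with ± here), which differ by 0.03 ± 0.19 on the log2 scale (SE; adjusted p = 0.968 in limma). The Spib promoter had 4.23 ± 0.51 and 3.72 ± 0.34, a difference of 0.51 (adjusted p = 0.370), and its mean was higher in Ikaros cells at 6 of 6 times. The Irf4 promoter had 4.38 ± 0.32 and 4.58 ± 0.37, and the Irf8 promoter 4.01 ± 0.10 and 4.37 ± 0.25. The 3 Bach2 promoter DHS had differences of 0.17 at -0.1 kb, 1.04 at +0.7 kb and -0.18 at +1.2 kb (adjusted p = 0.791, 0.250 and 0.860). At +0.7 kb the groups did not overlap, with 3.66 ± 0.13 in Ikaros and 2.62 ± 0.64 in Control cells, but the SE of that low and narrow DHS was 0.44. The differences were -0.34 at Bcl6, -0.09 at the start site of Bcl11a and -0.50 at Bcl11a +3.0 kb (adjusted p = 0.516, 0.914 and 0.708).

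To ask which DHS of these loci differ between the lines, limma was run on Ikaros against Control cells for every time point, with p-values adjusted over all DHS by the Benjamini-Hochberg method and a threshold of 0.05. At 0 h 6 of 67 DHS (8.96%) were called, 5 higher and 1 lower in Ikaros cells, where 12.9% of all DHS were called. At 6 h 1 DHS was called (1.49%, against 0.578% of all). At 2, 12, 18 and 24 h 0 were called, where 0.195%, 1.31%, 0.699% and 1.33% of all DHS were. An unadjusted p under 0.05 was reached by 19, 10, 15, 6, 10 and 6 DHS at the 6 times in order. These are 28.4%, 14.9%, 22.4%, 8.96%, 14.9% and 8.96% of the members, against 28.1%, 10.0%, 13.8%, 15.8%, 13.1% and 14.7% of all DHS, so that the members' share was above that of all DHS at 2, 6 and 18 h, under it at 12 and 24 h and about equal at 0 h. At 24 h the 3 values of one line lay wholly apart from those of the other in 16 of 67 DHS (23.9%), where the same held for 25.5% of all DHS. From 2 h on the counts called were 0 or 1, too few to set the members apart from DHS in general. Whether the share called at 0 h differs from that of all DHS was not tested.

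**Figure D3:**
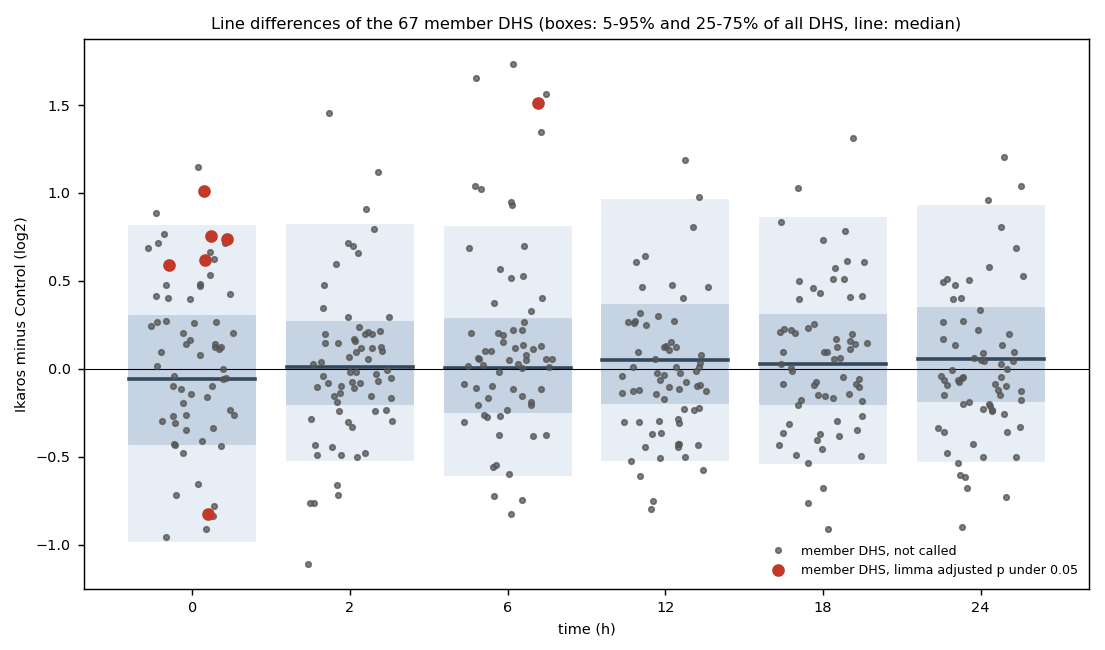
Ikaros minus Control (y axis, log2 difference of group means) for each of the 67 DHS at 0 to 24 h (x axis), over boxes of the central range of all DHS (5th to 95th and 25th to 75th percentile) and their median. Red marks the DHS called by limma: 6 at 0 h and 1 at 6 h.

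The direction was mixed. The median difference of the member DHS was 0.11, -0.02, 0.05, -0.06, 0.06 and -0.05 at the 6 times in order, against -0.06, 0.01, 0.00, 0.05, 0.03 and 0.06 for all DHS. At 24 h 28 of 67 were higher in Ikaros cells (41.8%, against 56.0% of all). The difference had the same sign at 6 of 6 times in 20 DHS, with 11 always higher in Ikaros cells (16.4%, against 12.5% of all) and 9 always lower (13.4%, against 10.8%). Genes held DHS of both kinds: 5 DHS of Bach2 were always higher and 2 always lower, 3 of Lef1 always higher and 2 always lower, and 1 of Spib always higher and 3 always lower. The times are not independent of each other, since the authors' correction was made over all groups together.

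Bach2 held the only DHS that was called at more than 1 time. Bach2 +149.3 kb, a 130 bp intronic DHS whose sequence opens the set shown above, had values of 4.33, 4.78 and 4.50 in the 3 Ikaros and 3.45, 3.28 and 3.84 in the 3 Control libraries at 0 h. At 6 h they were 4.08, 3.75 and 4.11 in Ikaros and 2.57, 2.74 and 2.09 in Control cells. The groups did not overlap at 0, 2 or 6 h, and they overlapped from 12 h on. The difference was 1.01 ± 0.27 at first (SE; limma adjusted p = 0.0132), then 0.79 ± 0.27 (2 h; adjusted p = 0.234) and 1.51 ± 0.27 (6 h; adjusted p = 0.00538), and it was 0.08, 0.15 and 0.20 at the later times. Within batches 11, 12 and 13 the 6 h difference was 1.51, 1.00 and 2.03, and the 0 h difference 0.88, 1.50 and 0.65. The Control mean lay between 2.47 ± 0.34 (6 h) and 3.73 ± 0.45 (18 h), and the Ikaros mean between 3.42 ± 0.41 (12 h) and 4.54 ± 0.23 (0 h). The F-test for change over time passed in neither line (adjusted p = 0.126 in Ikaros and 0.118 in Control cells). With only the Ikaros groups fitted it passed in Ikaros cells (adjusted p = 0.0380). The 6 h call was lost with only the 6 h libraries fitted (adjusted p = 0.137), without replicate 4, 5 or 6 (0.0685, 0.147 and 0.264) and without Ikaros 6h replicate 6 (0.0561), with differences of 1.26 to 1.77. The 0 h call was lost with its own groups only, without replicate 4, 5 or 6 and without Ikaros 0h replicate 5 (adjusted p = 0.0539).

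**Figure D4:**
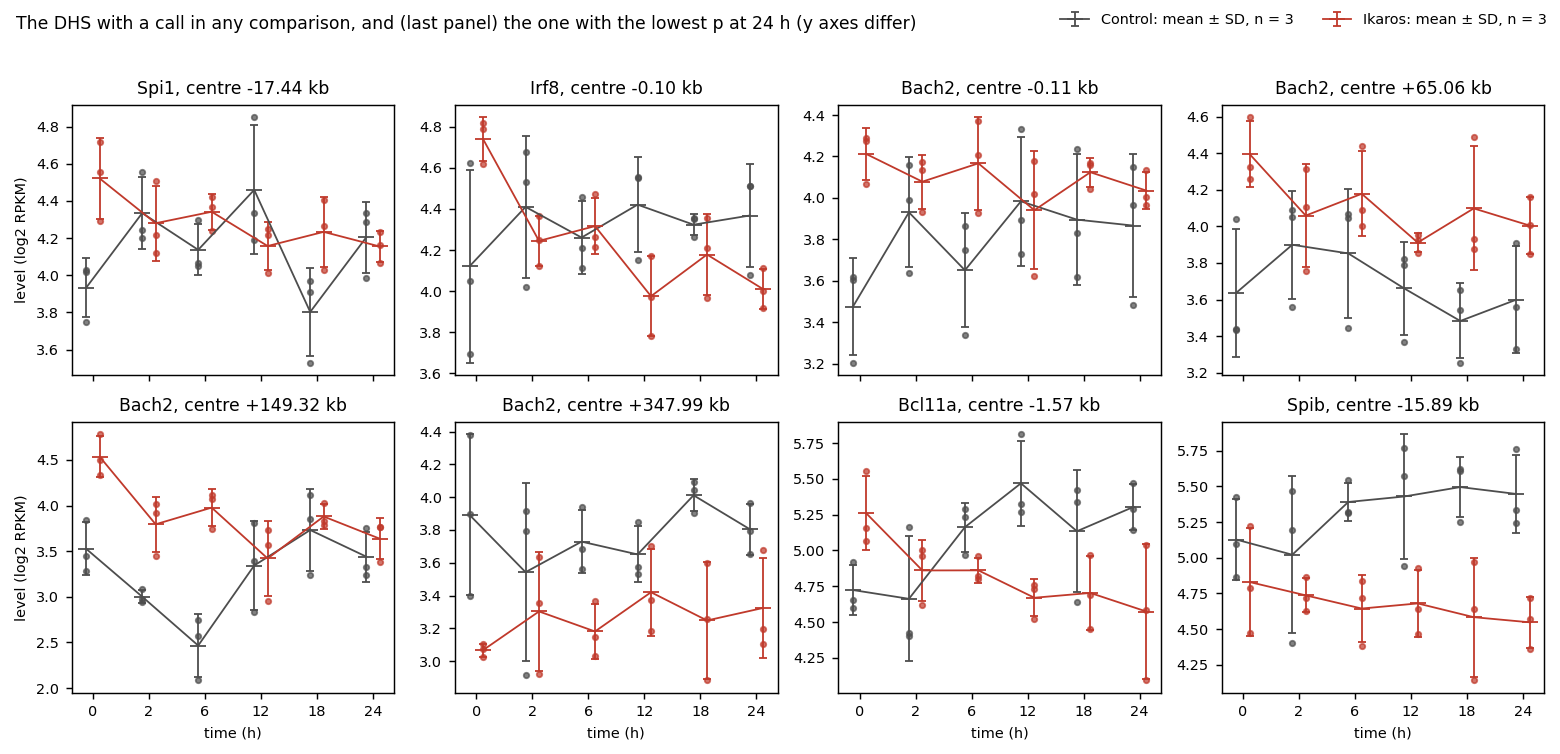
Level (y axis, log2 RPKM) of the 7 DHS with a call in any comparison, and of the DHS with the lowest p at 24 h (Spib -15.9 kb, last panel), at 0 to 24 h (x axis) in Control (grey) and Ikaros (red) cells; points are libraries, lines and bars the mean ± SD of 3. Bach2 +149.3 kb separates the lines at 0, 2 and 6 h, and Bcl11a -1.6 kb changes from Ikaros above Control at 0 h to below at 24 h.

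A further 3 DHS of Bach2 were called at 0 h. The promoter DHS at -0.1 kb (chromosome 4, 32238440 to 32238940 as deposited) had 4.07, 4.29 and 4.28 in Ikaros and 3.62, 3.60 and 3.20 in Control cells, a difference of 0.74 ± 0.22 (SE; limma adjusted p = 0.0233). The intronic Bach2 +65.1 kb (32303791 to 32303943) had 4.60, 4.32 and 4.26 against 3.43, 3.44 and 4.04, a difference of 0.76 ± 0.23 (adjusted p = 0.0287), and its mean was higher in Ikaros cells at 6 of 6 times, up to 0.62 at 18 h. Bach2 +348.0 kb, 501 bp wide and just past the end of the gene (32586541 to 32587042), was the one called lower, with 3.07, 3.10 and 3.02 against 3.90, 3.40 and 4.38, a difference of -0.83 ± 0.26 (adjusted p = 0.0374). In none of these 3 did the groups overlap at 0 h, which by itself fixes the sign within every batch. Promoter DHS as a class were higher in Ikaros cells at 0 h, 76.9% of all 13657 with a median of 0.34, and the difference at Bach2 -0.1 kb turned to -0.35 (adjusted p = 0.406) once trends with level, GC content and width were taken out. The GC content of that DHS is 77.6%. All 3 of these calls were lost with only the 0 h libraries fitted, and the one at -0.1 kb also without Control 0h replicate 6, Ikaros 0h replicate 5 or Ikaros 0h replicate 6. That at +65.1 kb was lost without Control 0h replicate 4 or 5 or Ikaros 0h replicate 4, and that at +348.0 kb without any 1 of the 0 h libraries but Control 0h replicate 5, after quantile normalization (adjusted p = 0.139) and with trends removed (0.134). Leaving out replicate 4, 5 or 6 from all groups ended the calls at -0.1 kb and +65.1 kb, and leaving out replicate 4 or 6 ended that at +348.0 kb.

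At the other Bach2 DHS no call was made. Bach2 +112.6 kb had the smallest p of the gene at 24 h, with 3.83 ± 0.29 in Ikaros and 2.87 ± 0.28 in Control cells, a difference of 0.96 ± 0.39 (SE; limma adjusted p = 0.223). At 6 h it had 3.70 ± 0.57 against 2.14 ± 0.17 (1.56, adjusted p = 0.0542), and the groups did not overlap at 6, 12 or 24 h. The DHS with the PU.1 and composite matches, Bach2 +326.3 kb, had differences between -0.15 and 0.12 over the 6 times, and Bach2 +134.6 kb, with a PU.1 match alone, had 0.29 to 0.69, higher in Ikaros cells at each time but called at none. Both are described for their sequence and not for a change.

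At Bcl11a, the DHS upstream of the start site changed its order between the lines. Bcl11a -1.6 kb had 5.55, 5.16 and 5.07 in Ikaros and 4.92, 4.60 and 4.65 in Control cells at 0 h, and 5.04, 4.09 and 4.59 against 5.15, 5.29 and 5.47 at 24 h. All Ikaros values were above all Control values at 0 h and below them at 24 h. The difference was 0.54 ± 0.23 at 0 h and -0.73 ± 0.23 at 24 h (SE; limma adjusted p = 0.115 and 0.0991), neither of which passed the threshold, and the change between them was -1.26 ± 0.32 (adjusted p = 0.0225). In batches 11, 12 and 13 the change was -0.74, -1.76 and -1.30. This DHS counts as a promoter DHS, of Gm12063, and over all promoter DHS the same change had a median of -0.42, with 22.4% positive. The F-test for the interaction of line and time gave an adjusted p of 0.0661. The call of the change was lost with only these 4 groups fitted (adjusted p = 0.0727), with trends removed (0.0501), without replicate 5 or 6, and without Control 0h replicate 6, Ikaros 0h replicate 4 or Ikaros 24h replicate 5. The other promoter-side DHS of the locus gave -0.04 at the start site and -1.22 at +3.0 kb for the same change (adjusted p = 0.950 and 0.278), the latter with an SE of 0.70. The DHS holds 9 CpG in its 151 bases and no match to the sequences searched.

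At Irf8 the promoter DHS also went from higher to lower mean values in Ikaros cells. It had 4.79, 4.62 and 4.82 in Ikaros and 3.69, 4.05 and 4.62 in Control cells at 0 h, a difference of 0.62 ± 0.20 (SE; limma adjusted p = 0.0375) in which Control replicate 6 reached the lowest Ikaros value, so that the groups overlapped. At 24 h it had 4.11, 4.00 and 3.92 against 4.51, 4.08 and 4.51, a difference of -0.36 ± 0.20 (adjusted p = 0.417), and the groups overlapped. The change was -0.98 ± 0.28 (adjusted p = 0.0372), with -1.49, -0.65 and -0.79 in the 3 batches. Over all promoter DHS the same change had a median of -0.42 and was negative in most, with 22.4% positive, and with trends removed the change at Irf8 was -0.34 (adjusted p = 0.601). The call of the change was held in 7 of 21 alternatives, and that of the 0 h difference in 5 of 15. Without Control 0h replicate 4 the 0 h difference was 0.41 and the change -0.76, both short of the threshold. Of the other 7 Irf8 DHS, Irf8 -10.9 kb differed least at 24 h (0.00, adjusted p = 0.996), and Irf8 +27.1 kb, with a PU.1 match, was higher in Ikaros cells at 6 of 6 times by 0.17 to 0.69 with no call.

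Across all DHS, 6.26% were called for the change of the line difference from 0 h to 24 h, and these 2 of the 67 make 2.99%. An unadjusted p under 0.05 for this change was reached by 8 members (11.9%), against 25.1% of all DHS. The change was positive at 27 of 67 member DHS (40.3%), against 56.8% of all DHS. Its median over the member DHS was -0.19, against 0.12 for all. By gene it was negative at 6 of 6 DHS of Spi1, 2 of 2 of Irf4, 4 of 5 of Bcl11a and 5 of 7 of Spib. At the others it was negative at 4 of 7 of Bcl6, 4 of 8 of Irf8, 10 of 21 of Bach2 and 5 of 11 of Lef1. From 2 h to 24 h, a comparison without the 0 h cells, 0 member DHS and 0 of all DHS were called by limma (0%). There 2 members had an unadjusted p under 0.05 (2.99%, against 2.85% of all DHS). The F-tests called 0 members for the interaction of line and time (1.10% of all DHS). For change over time 0 were called in Ikaros cells (2.29% of all) and 0 in Control cells (0.148%). At an unadjusted p under 0.05 these 3 F-tests had 5, 2 and 7 members (7.46%, 2.99% and 10.4%), against 14.4%, 12.7% and 12.6% of all DHS.

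Spi1 was called at 1 DHS and time. The intergenic Spi1 -17.4 kb, whose sequence holds a pair of Irf matches and an Ikaros match, had 4.56, 4.72 and 4.29 in Ikaros and 4.03, 4.02 and 3.75 in Control cells at 0 h, groups that did not overlap. The difference was 0.59 ± 0.18 (SE; limma adjusted p = 0.0302), with 0.53, 0.70 and 0.54 in the 3 batches. By 24 h it was -0.05 (4.16 ± 0.08 against 4.20 ± 0.19). The call was lost in 8 of 15 alternatives: with trends removed (0.19, adjusted p = 0.585), with only the 0 h libraries fitted (0.274), without replicate 4, 5 or 6, and without Control 0h replicate 6, Ikaros 0h replicate 4 or Ikaros 0h replicate 5. The upstream DHS at -13.0 kb had the narrowest range of group means among the 67 DHS, with group means between 4.42 and 4.75 and differences between -0.11 and 0.12. The intronic Spi1 +5.5 kb was lower in Ikaros cells at 6 of 6 times, by 0.24 to 0.68, and at 24 h had 4.11 ± 0.09 against 4.61 ± 0.20 with no overlap, but it did not pass (-0.50, adjusted p = 0.424). The Slc39a13 promoter at -25.6 kb differed by -0.07 at 24 h (adjusted p = 0.911).

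In the Spib window the lowest p of all 67 DHS at 24 h was found. Spib -15.9 kb, at the Pold1 promoter and with an Irf match, had 4.36, 4.71 and 4.57 in Ikaros and 5.33, 5.25 and 5.76 in Control cells at 24 h. Every Ikaros value was below every Control value at 6, 12, 18 and 24 h. At these times the difference was -0.75, -0.75, -0.91 and -0.90, with an SE of 0.25 (limma adjusted p = 0.151, 0.115, 0.0720 and 0.0587), and none passed. In the 3 batches it was -0.97, -0.53 and -1.20 at 24 h. It passed with only the 24 h libraries fitted (adjusted p = 0.0457) and without all 0 h libraries (0.0446, an alternative chosen after seeing the data). The larger Pold1 promoter DHS at -16.8 kb, less than 1 kb away, differed by -0.12 at 24 h (5.87 ± 0.21 against 5.99 ± 0.11, adjusted p = 0.827). The 2 DHS of Irf4 were lower in Ikaros cells at 5 and 6 of 6 times. Irf4 +37.1 kb, with a PU.1 match and in an exon of the annotated gene Gm29675, had 3.36 ± 0.40 against 4.04 ± 0.42 at 24 h (-0.68, adjusted p = 0.383).

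At Bcl6 and Lef1 no DHS was called in any comparison of the main fit. For Bcl6 the smallest p at 24 h was at +26.3 kb, downstream of the gene, with 3.47 ± 0.25 in Ikaros and 2.96 ± 0.24 in Control cells (0.50 ± 0.28, SE; limma adjusted p = 0.415). The intronic Bcl6 +4.5 kb had 5.22 ± 0.09 against 5.55 ± 0.04 without overlap (-0.33, adjusted p = 0.591). The promoter, which holds the Bcl6 match, had 4.51 ± 0.37 against 4.84 ± 0.10. For Lef1 the smallest p at 24 h was at +127.5 kb, in an intron of Hadh, a gene of fatty acid oxidation, with 3.64 ± 0.10 against 4.25 ± 0.23 (-0.61 ± 0.23, adjusted p = 0.193). It was lower in Ikaros cells at 6 of 6 times, without overlap at 6, 12 and 24 h. The intronic Lef1 +29.4 kb, named after its values were seen, was higher in Ikaros cells at 6 of 6 times, without overlap at 5 of them, with 3.81 ± 0.14 against 3.23 ± 0.33 at 24 h (0.58, adjusted p = 0.370). With trends removed it was called at 0 h (1.05, adjusted p = 0.0467). The DHS nearest to the Lef1 start on the upstream side, at -3.6 kb, had 4.41 ± 0.10 against 4.64 ± 0.12 (-0.23, adjusted p = 0.782). At 6 h the largest difference of any member was 1.73 at Lef1 -4.4 kb (adjusted p = 0.108), named after its value was seen.

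The pooled SD of replicates had a median of 0.36 over the 67 DHS (0.35 over all) and ran from 0.19 at Spi1 -17.4 kb to 0.83 at Lef1 +37.1 kb. DHS of at most 200 bp had a median of 0.43 and wider ones 0.26. From 2 h to 24 h the spread was smaller in Ikaros than in Control groups in 58 of 67 DHS, which held for 90.1% of all DHS. The mean SD of the members was 0.23 in Ikaros 2h and 0.45 in Control 2h, and 0.21 and 0.31 at 24 h. At 0 h it was 0.37 in Ikaros and 0.38 in Control cells, so there the Ikaros spread was larger than at the later times. The main fit took 1 spread for each DHS over all 12 groups, so its SE at 0 h does not follow the spread at 0 h.

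The level of a gene was also summarised as the mean of its DHS in each of the 12 groups. Bach2 and Lef1 had the most alike courses (Pearson r = 0.788 over the 12 group means), followed by Spib and Irf4 (0.770). For Irf8 the most alike was Lef1 (0.586), for Bcl11a it was Spib (0.576), for Spi1 it was Bcl11a (0.555), and for Bcl6 it was Irf4 (0.337). The least alike were Bach2 and Irf4 (-0.692). These are descriptions, since the groups share lines, batches and the correction. The Irf4 mean was lower in Ikaros (3.87 to 4.01 from 2 h on) than in Control cells (4.22 to 4.48), and the Bach2 mean higher (3.83 to 3.89 against 3.49 to 3.76).

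Other genes around these factors were counted at their promoters: further Irf genes, relatives and partners of Bach2, Bcl6 and Lef1, and targets such as Blnk, Cd79a and Il7r. Of 30 genes, 24 had a promoter DHS, 34 in all. At 0 h 5 DHS passed higher and 0 lower in Ikaros cells, at Irf1 (2 DHS, 0.84 and 1.59), Tcf7l2 (1.01), Mafk (0.83) and Ctnnb1 (1.18), which encodes β-catenin. With 12.9% of all DHS called at that time, 5 of 34 is near the background. At 2, 6, 12, 18 and 24 h 0 passed in limma, with 0, 4, 5, 2 and 5 at an unadjusted p under 0.05. Of all DHS, 10.0%, 13.8%, 15.8%, 13.1% and 14.7% had such a p at these times. The change from 0 h to 24 h passed lower at Ncor1 (-0.80), the cell cycle inhibitor gene Cdkn1a (-1.53), Tcf7l2 (-1.21) and Ctnnb1 (-1.18), and higher at 0, where 6.26% of all DHS were called. Their median difference was 0.30 at 0 h and -0.07 at 24 h, and over all promoter DHS it was 0.34 and -0.05.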

How the data were processed

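DNase-seq of 36 libraries was analysed from 1 table of the whole series. The authors shortened the reads, aligned them with Bowtie2 to mm10, used HOMER for peaks of both narrow and broad kind in each replicate, built consensus DHS and counted reads in them with bedtools. Low DHS were dropped, counts were scaled (RPKM, then TMM), and ARSyN took out variation that the authors could not tie to a known factor. The deposited values are log2 of this normalised read density. ARSyN models the groups: the 12 group means span 6 dimensions, so p-values rest on values already drawn toward a group pattern. Base 2 was settled from the values: it gives 369487 to 432755 RPM over the DHS of a library, and base e gives 1575615 to 2338647, more than a library holds.

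The deposited log2 values were fitted with limma 3.58.1 in R 4.3.3 (12 group means, contrasts, eBayes with an intensity trend, Benjamini-Hochberg adjustment over 52788 DHS, threshold 0.05), and the fit was tested on simulated data. Replicate numbers mark shared batches per the labels and so pair the samples. In the deposited values same-numbered libraries did not deviate together (median r = -0.0103 over 198 pairs, against 0.00789 over 396 other pairs). These values follow ARSyN, which takes out systematic variation, so this cannot show that the batches had no shared effect. The series text calls the replicates biological and the batches independent. Members, gene lists and sequences searched were chosen with earlier results of these data known. Named were all called DHS, promoter DHS, the highest DHS of each gene, the Spi1 DHS 13 to 16 kb upstream, and for each gene the DHS with the smallest p at 24 h. Distances are from the most 5′ start of a protein-coding transcript in the basic set of GENCODE vM21. Alternatives were a replicate block, own groups only, quantile normalization, eBayes without a trend, values with trends against level, GC content and width taken out, the lowest 25% of DHS left out, and leaving out replicates or libraries. Python 3.11.15, pandas 2.3.3 and pysam 0.24.0 were used. The result of 1 marker gene is not reported here.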

Additional observations from a re-analysis of the deposited data

Results flagged for a closer look

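At 2 DHS the change of the line difference from 0 h to 24 h passed the threshold in the main fit. This is 2.99% of the members, against 6.26% of all DHS. At Irf8 -0.1 kb, the promoter, the change was -0.98 (limma adjusted p = 0.0372), lower in 3 of 3 batches. That call held in 7 of 21 alternatives, and over all promoter DHS the same change had a median of -0.42. At Bcl11a -1.6 kb it was -1.26 (adjusted p = 0.0225), and the call held in 14 of 21 alternatives. This DHS is a promoter DHS too, of Gm12063, so the median of -0.42 is its background as well. The groups of Bcl11a -1.6 kb did not overlap at either time, which by itself fixes the sign within every batch. The 0 h cells were collected separately, and the part of this in the change was not tested.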

How the results depend on the processing

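No member call at 18 h or for the change from 2 h to 24 h was made under any of the alternatives. With a replicate block the counts of called DHS were 7 at 0 h (adding Spib -2.3 kb, -0.84, adjusted p = 0.0480), 1 at 6 h, 2 for the change from 0 h to 24 h and 0 elsewhere, and every call named in the report held. With own groups only the counts were 0 at 0 h, 0 at 6 h, 2 at 24 h (Spib -15.9 kb and Bach2 -6.9 kb), 0 for the change and 3 for change over time in Ikaros cells. These 3 were Irf8 -0.1 kb, Bach2 +149.3 kb and Lef1 -3.6 kb (F-test, adjusted p = 0.0254, 0.0380 and 0.0122). Without all 0 h libraries they were 2 at 6 h and 1 at 24 h. The change had 1 call after quantile normalization and 0 with trends removed. Leaving out replicates or single libraries gave 0 to 7 calls at 0 h, 0 to 1 at 2 h, 0 to 2 at 6 h, 0 to 1 at 12 h, 0 to 2 for the change, 0 to 1 for the interaction of line and time and 0 to 1 for change over time in Control cells. The cause was not tested.

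With trends removed the called difference of Bach2 -0.1 kb at 0 h (0.74) reversed to -0.35, and the cause was not tested. The other reversals were of differences that were not called. At 24 h quantile normalization gave 0.05 at the Bcl11a start site, 0.10 at Spi1 -25.6 kb, 0.0631 at Spib -16.8 kb and 0.13 at Irf8 -10.9 kb, and trends removed gave 0.0578, 0.0792, 0.16 and 0.18 there and 0.13 at Spi1 -13.0 kb. Leaving out libraries gave -0.12 to 0.15 at the Spi1 promoter, -0.43 to 0.19 at Irf4 -0.1 kb, -0.0232 to 0.31 at Bach2 -0.1 kb, -0.21 to 0.0027 at the Bcl11a start site, -0.15 to 0.0047 at Spi1 -25.6 kb, -0.20 to 0.0020 at Spib -16.8 kb, -0.13 to 0.20 at Irf8 -10.9 kb, -0.0070 to 0.50 at Bach2 +10.5 kb and -0.26 to 0.0531 at Spi1 -13.0 kb. None of these reversed values passed the threshold. The depth of the libraries is unknown and 3 replicates a group limit the precision.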
